A study of Mus musculus with 12 samples.

Results

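The C/EBP genes described here were Cebpa, Cebpb, Cebpd, Cebpg and Cebpz, taken by gene symbol from a count table of mouse liver RNA-seq that held 54838 Ensembl gene identifiers. The 5 symbols were given by name with no threshold on measured values, all 5 genes passed the filter on low counts, and 13861 genes were tested in all. Cebpe, another member of the family, is described with the partners of these genes. The table held 12 livers of C57BL/6J mice in 4 groups of 3 biological replicates. Hypoxia_DEX mice were kept at 7% oxygen for 24 h, were then injected intraperitoneally with dexamethasone (DEX, a synthetic agonist of the glucocorticoid receptor) at 10 mg/kg and went back to 7% oxygen. Hypoxia_PBS mice had the same 24 h at 7% oxygen and an injection of PBS, a saline vehicle. Normoxia_DEX mice stayed in normal air and received DEX at 10 mg/kg. Normoxia_PBS mice stayed in normal air and received PBS. Livers were taken 2 h after the injection in every group, so all animals had been injected and handled. Age and sex were not given in the sources used here. Hypoxia was compared with normoxia after each injection, DEX with PBS at each oxygen level, the double treatment with neither, and the DEX response in hypoxia with that in normoxia.

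C/EBP proteins are transcription factors that bind DNA as pairs held together by a leucine zipper, and different family members can pair with each other. C/EBP alpha (Cebpa) maintains the differentiated state of hepatocytes and restrains their division. C/EBP beta (Cebpb) and C/EBP delta (Cebpd) are known as regulators of acute phase genes and of early steps of fat cell differentiation, and C/EBP beta also takes part in gluconeogenesis and liver regeneration. C/EBP gamma (Cebpg) has no strong activation domain of its own and acts as a partner, for example of ATF4 in the amino acid stress response. Cebpz shares the family symbol but is not a leucine zipper protein. Its yeast relative Noc1 (Mak21) works in assembly of the large ribosomal subunit, and the human protein was first described as a factor that binds CCAAT boxes.

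The genes lie at 4 chromosomal sites (mm10, GENCODE M21). Cebpa covers chr7:35119293-35121928 on the plus strand and Cebpg covers chr7:35046422-35056573 on the minus strand, with 62.7 kb between them. Cebpb covers chr2:167688915-167690418 and Cebpd covers chr16:15887286-15891031, both on the plus strand, while Cebpz covers chr17:78919006-78937066 on the minus strand. Cebpa, Cebpb and Cebpd each have a single exon block, against 3 blocks in Cebpg and 16 in Cebpz. A gene on the opposite strand overlaps part of the exons of each of the 5, namely Tmem189 over 20.7% of Cebpb, Spidr over 15% of Cebpd, Cebpzos over 3.67% of Cebpz, Gm45091 over 1.93% of Cebpa and Gm45095 over 4 bases of Cebpg. The library kit keeps the strand, but the strand setting of the counting was not given in the sources used here, so a share of reads from these overlaps could sit with either gene.

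RefSeq promoter sequences (GRCm38.p6) were at hand for Cebpa, Cebpb and Cebpg. Those of Cebpa and Cebpb are shown because the ratio of these transcripts separated all DEX livers from all PBS livers. Each line gives the 250 bases before the annotated start, 5′ to 3′ on the strand of the gene, with every match to the motifs searched in capitals (chr7:35119043-35119292 for Cebpa and chr2:167688665-167688914 for Cebpb).
Cebpa: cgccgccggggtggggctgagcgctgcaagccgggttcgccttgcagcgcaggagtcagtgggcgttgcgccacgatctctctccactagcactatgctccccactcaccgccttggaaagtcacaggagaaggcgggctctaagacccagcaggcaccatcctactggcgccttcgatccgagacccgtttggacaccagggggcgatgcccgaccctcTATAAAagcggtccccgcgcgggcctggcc
Cebpb: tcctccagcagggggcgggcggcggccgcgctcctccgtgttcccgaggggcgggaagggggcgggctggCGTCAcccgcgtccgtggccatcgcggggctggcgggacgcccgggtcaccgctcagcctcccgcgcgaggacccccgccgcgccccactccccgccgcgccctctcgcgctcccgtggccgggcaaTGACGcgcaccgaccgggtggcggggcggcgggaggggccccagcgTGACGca
In Cebpa the capitals mark a TATA box (TATAAA) at position -30 from the start. In Cebpb they mark 3 copies of TGACG, a part of the cAMP response element that reads CGTCA on the other strand, at positions -180, -53 and -7 from the start. TATAAA occurs in 12.4% and TGACG in 17.8% of 32851 RefSeq promoters of the same length, on either strand. The Cebpg promoter holds CCAAT on the minus strand at positions -89 and -28 from its start, a motif found in 33.8% of promoters. The other motifs searched on both strands were TTGCGCAA (C/EBP palindrome), ACGTG (hypoxia response core), AGAACA (a part of the glucocorticoid response element), TGACGTCA (which contains TGACG), TGATGNAA (amino acid response core) and CACGTG (which contains ACGTG). None of these letters is in the 3 windows, which is a description of the windows and says nothing about binding elsewhere.

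Total counts per library lay between 12464687 and 24715995, and levels are given as CPM, counts scaled to the library total with TMM factors. The nearest replicates were Hypoxia_DEX 1 and 3, with a chi-square of 1.79 per gene, while that of other pairs lay between 10.5 and 38.4. They still differed beyond counting noise and were kept as separate samples. On the second principal component, Hypoxia_DEX replicate 2 lay at 9.22 (21.5 and 21.4 in its group) and Hypoxia_PBS replicate 1 lay at -6.36 (-25.5 and -22.2 in its group). Summed levels of 7 hepatocyte markers were 127976 to 135247 CPM in Hypoxia_DEX and 119435 to 138883 CPM in Hypoxia_PBS livers. They were 138076 to 149715 CPM in Normoxia_DEX and 111803 to 121715 CPM in Normoxia_PBS livers, with no overlap. At an edgeR adjusted p below 0.05, DEX raised 3 of 7 in normoxia and 1 of 7 in hypoxia and lowered 0. Of all genes 9.38% and 6.13% were higher in those comparisons. The part of hepatocytes in the levels of the C/EBP genes was not tested. Summed levels of 5 adipocyte markers were at most 0.989 CPM. No batch was given in the labels.

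Per kilobase of exon, Cebpb was the most abundant of the 5 transcripts and Cebpa came next. Over the 12 libraries the level was 185 ± 39.5 CPM per kb for Cebpb and 83.6 ± 21.0 for Cebpa (SD, n = 12). The remaining genes lay close together, at 13.0 ± 2.13 for Cebpg, 11.2 ± 4.46 for Cebpd and 9.02 ± 1.28 CPM per kb for Cebpz, and neighbours among these 3 did not differ beyond their spread. Cebpd changed its place between groups. Its level of 16.4 CPM per kb was the third highest in Hypoxia_DEX livers, and its 13.4 the fourth highest in Hypoxia_PBS livers, while it was the lowest of the 5 at 8.58 in Normoxia_DEX and 6.34 in Normoxia_PBS livers.

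**Figure D1:**
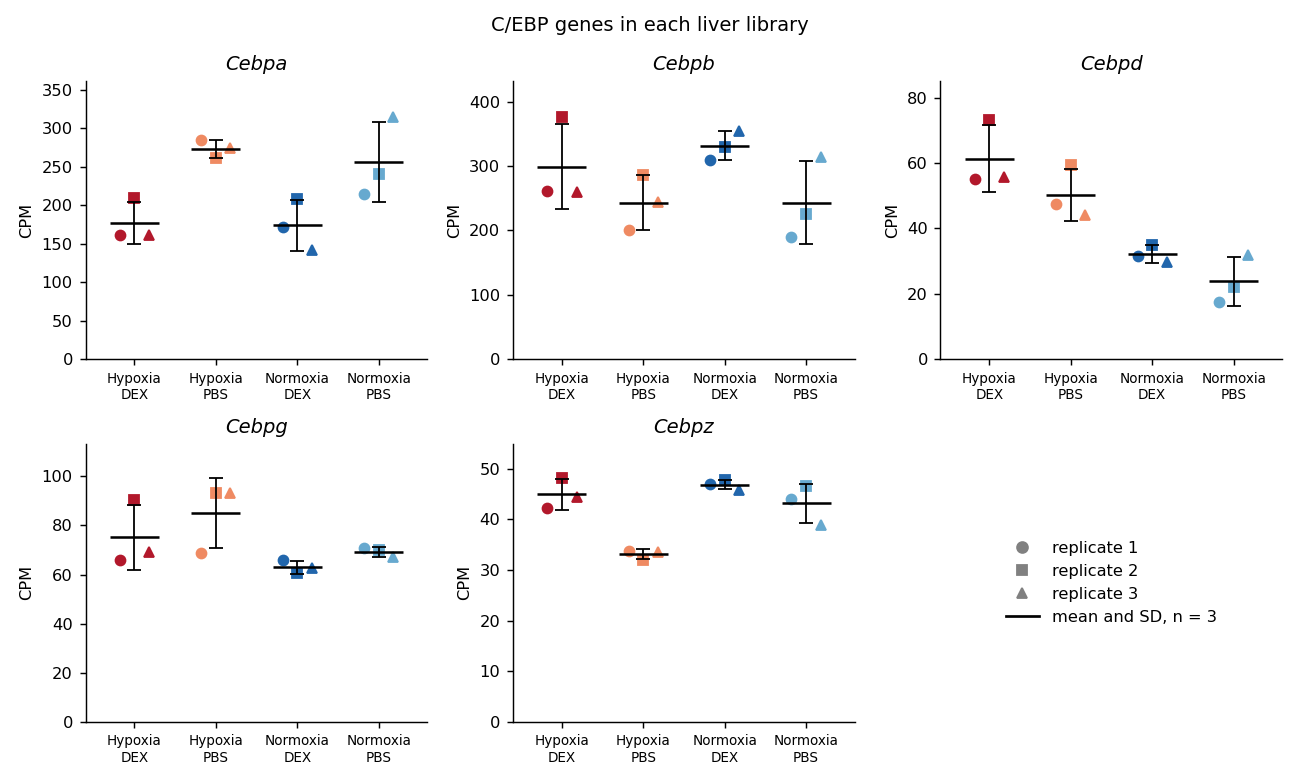
Level of each C/EBP gene in CPM (vertical axis from 0) in the 4 groups, with 1 symbol per library and bars for the mean and SD (n = 3). The 6 hypoxic livers are above the PBS-injected normoxic livers in Cebpd, both DEX groups have lower means than both PBS groups in Cebpa, and the Hypoxia_PBS livers lie apart at 31.9 to 33.7 CPM in Cebpz.

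Hypoxia raised Cebpd and, in PBS-injected livers, lowered Cebpz, while Cebpa, Cebpb and Cebpg did not pass the test. Between Hypoxia_PBS and Normoxia_PBS livers 2 of the 5 genes were called, 1 in each direction, where 35.7% of all genes were called (18.9% higher and 16.8% lower), so the number of calls was near the background. Called means an edgeR quasi-likelihood adjusted p below 0.05 over all 13861 genes.

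Cebpd had 47.5, 59.3 and 44.2 CPM in Hypoxia_PBS livers, against 17.3, 22.1 and 31.8 CPM in Normoxia_PBS livers. All 3 hypoxic values were above all 3 normoxic ones. The fitted difference was 1.08 ± 0.20 on the log2 scale (SE), or 2.12-fold, with an edgeR adjusted p of 0.00220, and 90.2% of all genes changed by less in that comparison. After DEX the groups were also apart, with 55.0, 73.1 and 55.7 CPM in Hypoxia_DEX livers and 31.5, 35.0 and 29.8 CPM in Normoxia_DEX livers. That difference was 0.93 ± 0.20 (SE), or 1.90-fold, with an edgeR adjusted p of 0.00374. Both calls were kept under each of the 19 alternatives computed for them, which included leaving out each library in turn. On the other strand Spidr moved in the opposite direction and fell by 0.47 (log2) in hypoxia after PBS and fell by 0.62 after DEX, with edgeR adjusted p of 0.0340 and 0.00712.

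Some markers of other cells were also lower in hypoxia than in normoxia. Of all genes, 16.8% were called lower and 18.9% higher in hypoxia after PBS, and 22.2% lower and 20.7% higher after DEX. All 13 Kupffer cell and macrophage markers were measured and none was at 0 in every library. Their summed level was 257 to 281 CPM in Hypoxia_DEX and 236 to 294 CPM in Hypoxia_PBS livers, against 613 to 888 CPM in Normoxia_DEX and 548 to 727 CPM in Normoxia_PBS livers, and 13 of 13 fell after DEX and 12 of 13 after PBS. In these whole-liver samples fewer cells of a type and less RNA per cell cannot be told apart. Among 8 stellate cell and fibroblast markers 5 fell after DEX (median -0.70), and 4 fell and 1 rose after PBS (median -0.52). Their summed level was 353 to 365 CPM in Hypoxia_DEX and 299 to 376 CPM in Hypoxia_PBS livers, against 415 to 441 CPM in Normoxia_DEX and 317 to 422 CPM in Normoxia_PBS livers. Of 7 endothelial markers 2 fell after DEX (median -0.15), near the share of all genes. After PBS 3 fell and 1 rose (median -0.04). Their sums were 284 to 306 CPM in the hypoxic and 321 to 375 CPM in the normoxic livers. Lymphocyte markers were low, with median sums of 3.36 CPM in Hypoxia_DEX and 4.09 CPM in Hypoxia_PBS livers, against 3.74 CPM in Normoxia_DEX and 6.66 CPM in Normoxia_PBS livers, and of the 6 tested 0 fell after DEX and 2 after PBS. The part of these cells in the levels of the C/EBP genes was not tested.

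Cebpz was the only one of the 5 called lower in hypoxia after PBS. It had 33.7, 31.9 and 33.6 CPM in Hypoxia_PBS livers, against 44.1, 46.5 and 39.0 CPM in Normoxia_PBS livers, with no overlap. The log2 difference was -0.39 ± 0.08 (SE), a level 0.766 times that in Normoxia_PBS, with an edgeR adjusted p of 0.00177. After DEX the values were 42.2, 48.2 and 44.4 CPM in Hypoxia_DEX livers and 46.9, 47.8 and 45.9 CPM in Normoxia_DEX livers, and the ranges overlapped. The log2 difference there was -0.06 (95% interval -0.23 to 0.10, edgeR adjusted p = 0.529). Cebpzos, which overlaps the Cebpz locus on the other strand, rose by 0.39 in hypoxia after PBS (edgeR adjusted p = 0.0307).

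Cebpa had 284.8, 261.6 and 274.2 CPM in Hypoxia_PBS livers and 214.4, 240.6 and 314.3 CPM in Normoxia_PBS livers. The normoxic values lay on both sides of the hypoxic ones, and the log2 difference of 0.09 had a 95% interval from -0.26 to 0.44. In Cebpb the corresponding log2 difference was 0.001, with an interval from -0.44 to 0.44. Cebpg had 68.7, 93.1 and 93.4 CPM in Hypoxia_PBS livers and 70.8, 69.9 and 67.1 CPM in Normoxia_PBS livers. Replicate 1 of Hypoxia_PBS lay within the normoxic range and the other 2 well above it. The log2 difference in Cebpg was 0.30 ± 0.13 (SE; edgeR unadjusted p = 0.0363, adjusted p = 0.0859). Without Hypoxia_PBS replicate 1 it was 0.41 with an edgeR adjusted p of 0.0102, and without Hypoxia_DEX replicate 2 the adjusted p was 0.0420. It was 0.217 without Hypoxia_PBS replicate 2 and 0.224 without Hypoxia_PBS replicate 3, with edgeR adjusted p of 0.242 and 0.253. Leaving out any other single library gave no call.

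Between Hypoxia_DEX and Normoxia_DEX livers 1 of the 5 genes, Cebpd, was called, where 42.9% of all genes were called (20.7% higher and 22.2% lower). Cebpg gave 65.9, 90.4 and 69.0 CPM in Hypoxia_DEX livers and 65.7, 60.5 and 62.7 CPM in Normoxia_DEX livers. The lowest hypoxic value was just above the highest normoxic one, and the log2 difference of 0.25 ± 0.13 (SE) had an edgeR adjusted p of 0.127. The adjusted p was 0.0345 without Hypoxia_PBS replicate 1, a library outside this comparison. Without Hypoxia_DEX replicate 2 the Cebpg difference was 0.12, with an edgeR adjusted p of 0.406. For Cebpa the log2 difference was 0.03 (95% interval -0.32 to 0.38) and for Cebpb it was -0.15 (-0.59 to 0.29).

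**Figure D2:**
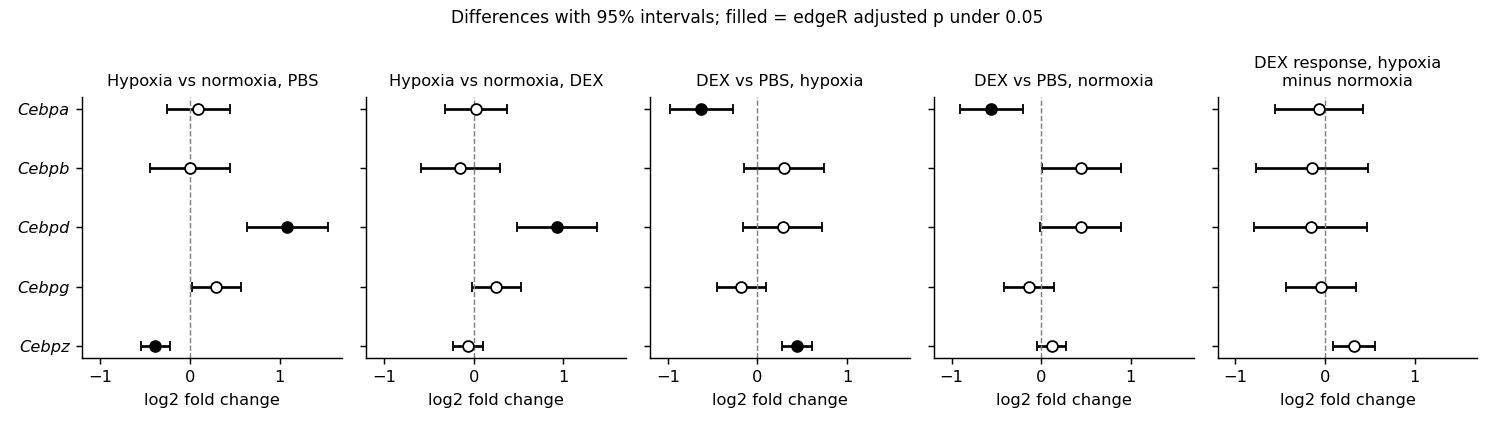
Log2 fold changes of the 5 C/EBP genes with 95% intervals in 4 comparisons and, at the right, the DEX response in hypoxia minus that in normoxia. Filled circles passed an edgeR adjusted p of 0.05, as Cebpd did in both hypoxia comparisons, Cebpa in both DEX comparisons and Cebpz in hypoxia after PBS and after DEX in hypoxia.

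DEX lowered Cebpa at both oxygen levels and raised Cebpz in hypoxia, within 2 h of the injection. In hypoxia 2 of the 5 genes were called, 1 in each direction, where 13.2% of all genes were called (6.13% higher and 7.05% lower). In normoxia 1 of the 5 was called, where 16.8% of all genes were called (9.38% higher and 7.40% lower).

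In hypoxia Cebpa had 161.2, 209.0 and 161.7 CPM in Hypoxia_DEX livers, against 284.8, 261.6 and 274.2 CPM in Hypoxia_PBS livers. All DEX values were below all PBS values. The log2 difference was -0.63 ± 0.16 (SE), a level 0.648 times that in Hypoxia_PBS, with an edgeR adjusted p of 0.0237. In normoxia Cebpa had 171.8, 207.7 and 142.2 CPM in Normoxia_DEX livers and 214.4, 240.6 and 314.3 CPM in Normoxia_PBS livers, again with no overlap, although the nearest values were close. The log2 difference there was -0.56 ± 0.16 (SE), a level 0.679 times that in Normoxia_PBS, with an edgeR adjusted p of 0.0320. The change in hypoxia minus that in normoxia was -0.07 with a 95% interval from -0.56 to 0.43.

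These Cebpa calls lay close to the threshold, while the direction held in every alternative. In hypoxia the edgeR adjusted p was 0.103 without Hypoxia_DEX replicate 1, 0.102 without Hypoxia_DEX replicate 3, and 0.0589, 0.0542 and 0.0724 without Hypoxia_PBS replicate 1, 2 and 3. With the 2 close Hypoxia_DEX libraries summed it was 0.10, and with no filter on low counts 0.0866. In normoxia it was 0.0927 and 0.0988 without Normoxia_DEX replicates 1 and 3, 0.0591 and 0.115 without Normoxia_PBS replicates 2 and 3, 0.0988 with no filter and 0.0684 when the fit held only the groups compared.

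Cebpz had 42.2, 48.2 and 44.4 CPM in Hypoxia_DEX livers, against 33.7, 31.9 and 33.6 CPM in Hypoxia_PBS livers. Every DEX value was higher. The log2 difference was 0.44 ± 0.08 (SE), or 1.36-fold, with an edgeR adjusted p of 0.00204, and it was called in all 19 alternatives. In normoxia Cebpz had 46.9, 47.8 and 45.9 CPM in Normoxia_DEX livers and 44.1, 46.5 and 39.0 CPM in Normoxia_PBS livers, which overlapped. The log2 difference was 0.12 with a 95% interval from -0.04 to 0.28 (edgeR adjusted p = 0.339). The test of the difference between these responses, 0.32 ± 0.11 (SE), gave an unadjusted p of 0.00998 and an edgeR adjusted p of 0.199, with adjusted p between 0.0861 and 0.399 over the alternatives. Cebpz was therefore not shown to respond differently to DEX in hypoxia and in normoxia.

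Cebpb, Cebpd and Cebpg were not called after DEX at either oxygen level. Cebpb had 261.3, 375.7 and 259.7 CPM in Hypoxia_DEX and 199.8, 285.2 and 244.1 CPM in Hypoxia_PBS livers, with a log2 difference of 0.30 (95% interval -0.15 to 0.74), or 0.13 without Hypoxia_DEX replicate 2. It had 309.4, 329.2 and 354.4 CPM in Normoxia_DEX and 189.7, 224.9 and 313.9 CPM in Normoxia_PBS livers, with a log2 difference of 0.45 ± 0.20 (SE; unadjusted p = 0.0485, edgeR adjusted p = 0.168). Normoxia_PBS replicate 3 reached into the DEX range. Without that library the Cebpb difference was 0.68 with an edgeR adjusted p of 0.0311, and that of Cebpd was 0.70 with an adjusted p of 0.0152. Without Normoxia_PBS replicate 1 the Cebpb difference was 0.30 with an edgeR adjusted p of 0.406. Over the alternatives the Cebpd difference was as low as 0.26.

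For Cebpd with all libraries the log2 difference after DEX was 0.28 (95% interval -0.16 to 0.72) in hypoxia and 0.44 (-0.01 to 0.89, edgeR adjusted p = 0.182) in normoxia. For Cebpg it was -0.18 (-0.46 to 0.09) in hypoxia and -0.14 (-0.41 to 0.14) in normoxia. In normoxia the Cebpg values of the groups did not overlap and still did not pass. Leaving out both libraries that stood apart on the second component gave Cebpg a log2 difference of -0.44 after DEX in hypoxia, with an edgeR adjusted p of 0.00136, and 0.41 for hypoxia after PBS, with 0.000635.

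Hypoxia_DEX livers were also set against Normoxia_PBS livers. Of the 5 genes 1 was called higher and 1 lower, where 49.2% of all genes were called (24.5% higher and 24.7% lower). Cebpd was 2.58-fold higher with both treatments, at a mean of 61.3 ± 10.3 CPM in Hypoxia_DEX and 23.8 ± 7.39 CPM in Normoxia_PBS livers (SD, n = 3 each; edgeR adjusted p = 0.000297). Cebpa averaged 177 ± 27.5 CPM in Hypoxia_DEX and 256 ± 51.8 CPM in Normoxia_PBS livers (SD, n = 3 each), a log2 difference of -0.53 with an edgeR adjusted p of 0.0161. That call was lost without Hypoxia_DEX replicate 1 or 3 or Normoxia_PBS replicate 3 (adjusted p = 0.0631, 0.0632 and 0.0674), where Cebpb was called instead in the last case (0.53, adjusted p = 0.0365). Cebpz averaged 44.9 ± 3.06 CPM in Hypoxia_DEX and 43.2 ± 3.85 CPM in Normoxia_PBS livers, with a log2 difference of 0.05 (95% interval -0.11 to 0.22).

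The test of whether the DEX response differed with oxygen called none of the 5 genes, where 1.32% of all genes were called (0.325% higher and 0.996% lower). At an unadjusted p below 0.05 edgeR gave 1 gene, Cebpz, and DESeq2 called 0 after adjustment. The 95% intervals of that difference were wide for Cebpb (-0.78 to 0.48) and Cebpd (-0.79 to 0.47) and narrower for Cebpg (-0.43 to 0.34).

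The balance of Cebpa with Cebpb and with Cebpd was also read as ratios within a library, where the scaling of the library cancels. Per kilobase, the ratio of Cebpa to Cebpb was 0.352, 0.317 and 0.355 in Hypoxia_DEX livers, against 0.813, 0.523 and 0.641 in Hypoxia_PBS livers. In Normoxia_DEX livers it was 0.317, 0.360 and 0.229, against 0.645, 0.610 and 0.571 in Normoxia_PBS livers. The 6 DEX livers all lay below the 6 PBS livers. The ratio of Cebpa to Cebpd was 4.17, 4.06 and 4.13 in Hypoxia_DEX and 8.53, 6.27 and 8.82 in Hypoxia_PBS livers. In Normoxia_DEX livers that ratio was 7.75, 8.43 and 6.77, and in Normoxia_PBS livers 17.6, 15.5 and 14.0. It was lowest with both treatments, highest with neither, and overlapped between the groups that had a single treatment. These ratios are descriptions and were not tested.

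**Figure D3:**
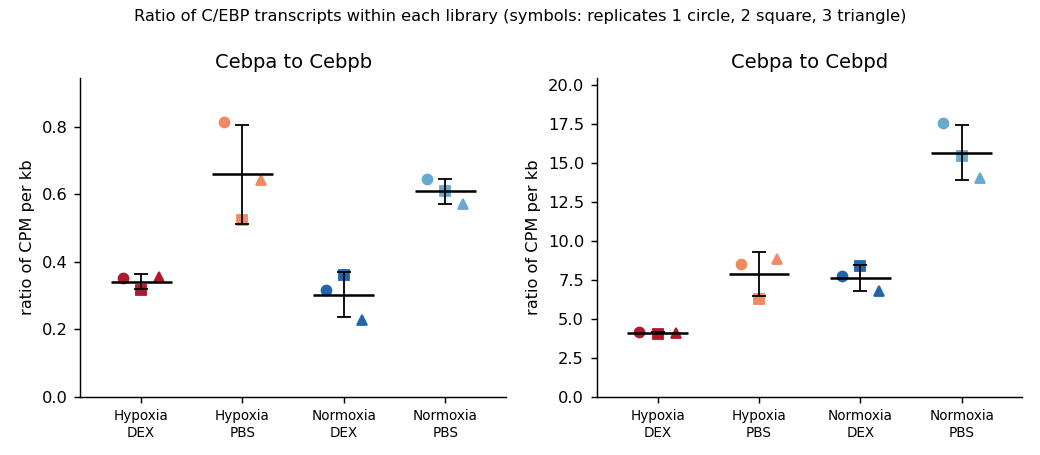
Ratio of Cebpa to Cebpb (left) and of Cebpa to Cebpd (right) in CPM per kb in each library, with the mean and SD of each group (n = 3). The ratio to Cebpb is 0.229 to 0.360 in the 6 DEX livers and 0.523 to 0.813 in the 6 PBS livers.

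In some groups a single library was the highest in several of the genes at once. Hypoxia_DEX replicate 2 was the highest of its group in all 5 genes, by 0.53 on the log2 scale over the mean of the other replicates in Cebpb and by 0.16 in Cebpz. Normoxia_PBS replicate 3 was the highest of its group in Cebpa, Cebpb and Cebpd, by 0.47, 0.60 and 0.70, while Cebpz was lowest there. Normoxia_DEX replicate 2 was the highest of its group in Cebpa, Cebpd and Cebpz, by 0.41, 0.19 and 0.04, while Cebpg was lowest there. In Hypoxia_PBS no library was the highest in more than 2 of the genes. Deviations of a library could also differ in sign between genes. Hypoxia_PBS replicate 1 lay 0.09 above the mean of the other replicates in Cebpa and at -0.40 in Cebpb, and Normoxia_DEX replicate 3 lay at -0.41 in Cebpa and 0.15 in Cebpb. The ratio of Cebpa to Cebpb was 0.342 ± 0.0210 in Hypoxia_DEX and 0.659 ± 0.146 in Hypoxia_PBS livers, and 0.302 ± 0.0668 in Normoxia_DEX and 0.609 ± 0.0368 in Normoxia_PBS livers (SD, n = 3 each).

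The genes whose log2 CPM followed each C/EBP gene most closely over the 12 libraries were sought among 8987 genes. The libraries form 4 groups, so these correlations hold differences between groups and are given as descriptions. For Cebpa they included Naprt (an enzyme of NAD synthesis), Shroom2, Rexo1 and Ifngr2, with Pearson r between 0.960 and 0.900. For Cebpb they were Jmjd1c, S1pr3, Cnn3, Efhd2 and Xdh (xanthine dehydrogenase), with r between 0.938 and 0.921. Fbxw4, Mut, Cops3, Ttpa (the carrier of vitamin E) and Ahcy were the nearest to Cebpd, at 0.964 to 0.962. Nrip1 (a nuclear receptor corepressor), R3hcc1l, Ssx2ip, Inhbb (an activin subunit) and Cdv3 were the nearest to Cebpg, at 0.949 to 0.934. Cebpz was followed by Esf1, Ppp1r12c, Krr1, Rab9 and Naa15, at 0.970 to 0.921. The yeast relatives of Esf1 and Krr1 work in ribosome assembly, as does that of Cebpz.

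Genes around the family were read from 6 lists with 109 distinct genes, of which 100 were measured. Beside each list stands the median log2 change of all 13861 genes, which was 0.007 for hypoxia after PBS, -0.02 for hypoxia after DEX, -0.01 for DEX in hypoxia and 0.002 for DEX in normoxia. Counts give genes higher and lower at an edgeR adjusted p below 0.05. Hypoxia after PBS or after DEX is hypoxia against normoxia with that injection. After DEX in hypoxia or in normoxia is DEX against PBS at that oxygen level. Of all genes, 18.9% were called higher and 16.8% lower for hypoxia after PBS, and 20.7% and 22.2% for hypoxia after DEX. The shares were 6.13% and 7.05% for DEX in hypoxia, and 9.38% and 7.40% for DEX in normoxia.

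Among 16 partners and regulators of C/EBP proteins, 2 rose and 2 fell in hypoxia after PBS, with a list median of 0.005. After DEX 3 rose and 4 fell in hypoxia, with a list median of 0.05. In hypoxia against normoxia Cebpe, the granulocyte member of the family, fell by 1.57 after PBS and fell by 2.12 after DEX (edgeR adjusted p = 0.00402 and 0.00117). Its level was low, at 0.175 to 0.683 CPM in Hypoxia_DEX livers and 1.37 to 2.49 CPM in Normoxia_DEX livers. Atf5, a leucine zipper factor of the stress response, rose by 0.73 in hypoxia after PBS (adjusted p = 0.000536). DEX raised 3 and lowered 1 in hypoxia (median -0.003), and raised 4 and lowered 1 in normoxia (median -0.10). Il6ra, the interleukin 6 receptor that acts upstream of Cebpb and Cebpd, rose by 0.96 ± 0.12 in hypoxia and by 1.28 ± 0.12 in normoxia after DEX (log2, SE; edgeR adjusted p = 0.000232 and 9.91e-06). Trib2, of the family of pseudokinases known in human and mouse blood cells for sending C/EBP alpha to degradation, rose by 0.53 and 0.87 (adjusted p = 0.0199 and 0.000468). Its group means were 3.12 to 5.71 CPM. Trib1, at 63.5 to 96.6 CPM, had log2 differences of -0.23 in hypoxia and -0.60 in normoxia after DEX and was not called (edgeR adjusted p = 0.637 and 0.173). Trib3 rose by 0.49 in hypoxia, not called, and by 1.21 in normoxia (edgeR adjusted p = 0.189 and 0.000867). Ddit3 (CHOP, an inhibitory C/EBP partner) fell by 2.01 after DEX in normoxia (adjusted p = 5.24e-05). Atf3, Ddit3 and Trib3 also stand in the next list.

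Of 11 neutrophil markers 6 were tested, and none of the 11 was at 0 in every library. The summed level of all 11 was 18.3 to 43.3 CPM in Hypoxia_DEX and 26.1 to 94.9 CPM in Hypoxia_PBS livers. It was 9.86 to 16.8 CPM in Normoxia_DEX and 31.1 to 50.8 CPM in Normoxia_PBS livers, so the sums of the PBS groups overlapped. After DEX 2 of 6 fell at each oxygen level, where 7.05% of all genes were called lower in hypoxia and 7.40% in normoxia. In hypoxia against normoxia, where Cebpe fell, 1 of 6 rose and 0 fell after PBS (median 0.32), near the 18.9% of all genes called higher. After DEX 2 of 6 rose and 0 fell in hypoxia against normoxia (median 1.14), where 20.7% of all genes were called higher. The part of neutrophils in the results on Cebpe and on the inflammatory genes was not tested.

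The amino acid response genes, where C/EBP beta or gamma pairs with ATF4, showed no shared direction in 13 measured of 16 genes. In hypoxia 3 rose and 3 fell after PBS (median -0.09), and 3 rose and 2 fell after DEX (median 0.18). Psat1, of serine synthesis, rose by 1.42 and 1.39 (edgeR adjusted p = 0.0219 and 0.0164), and Asns, asparagine synthetase, rose by 1.37 after PBS (0.0437). Both levels were low. Psat1 had 1.58, 0.876 and 1.88 CPM in Hypoxia_PBS and 0.927, 0.357 and 0.330 CPM in Normoxia_PBS livers, which overlapped. Asns had 1.75, 4.89 and 3.42 CPM in Hypoxia_PBS and 1.51, 1.02 and 1.32 CPM in Normoxia_PBS livers. Cars, a transfer RNA synthetase, fell by 0.92 in hypoxia after PBS and fell by 1.09 in hypoxia after DEX (edgeR adjusted p = 0.00468 and 0.00122). DEX against PBS raised 1 gene in hypoxia (median 0.10), and raised 2 and lowered 2 in normoxia (median 0.07). Counts in this list moved with single libraries: hypoxia after PBS gave between 2 and 6 called genes when 1 library was left out, with 2 or 3 without Hypoxia_PBS replicate 2 or 3 or any of the Normoxia_PBS libraries.

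Metabolic genes of hepatocytes known as targets of C/EBP alpha and beta were called in both directions in hypoxia. Of 18 measured genes 4 rose and 5 fell in hypoxia after PBS (median 0.04), where 18.9% of all genes were called higher and 16.8% lower, and 5 rose and 5 fell after DEX (median 0.10), where the shares were 20.7% and 22.2%. Gys2, the liver glycogen synthase, rose by 0.97 and 1.23 (edgeR adjusted p = 0.00357 and 0.00062), and Cyp7b1, of bile acid synthesis, fell by 1.10 and fell by 1.18 (2.03e-05 and 7.72e-06). Against PBS, DEX raised 2 of the 18 and lowered 0 in hypoxia (median 0.32, with 6.13% of all genes called higher). It raised 4 and lowered 0 in normoxia (median 0.13, with 9.38%). Tat, tyrosine aminotransferase and a classical glucocorticoid target, rose by 1.97 ± 0.28 in hypoxia and 1.56 ± 0.27 in normoxia (SE; adjusted p = 0.00113 and 0.00265). Pck1, of gluconeogenesis, rose by 1.15 and 0.74 (0.00448 and 0.0317). At an unadjusted p below 0.05, 7 genes of the list passed in hypoxia and 6 in normoxia, and DESeq2 called 3 and 5. The DEX count in hypoxia was 5 without Hypoxia_DEX replicate 2, 4 without Hypoxia_PBS replicate 1 and 5 without Normoxia_PBS replicate 3.

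Acute phase and inflammatory genes known as targets of C/EBP beta and delta were called in both directions after DEX. Of 21 measured genes 2 rose and 4 fell in hypoxia (median -0.06), and 2 rose and 5 fell in normoxia (median -0.03). The largest falls were those of cytokine genes. Ccl2 fell by 3.42 in hypoxia and fell by 6.19 in normoxia (edgeR adjusted p = 0.0332 and 0.00449), Il1b fell by 2.73 and fell by 4.01 (0.00424 and 0.000418), and Tnf fell by 2.54 and fell by 3.71 (0.00933 and 0.00104). In Hypoxia_DEX livers Ccl2 had 1.36, 8.74 and 0.998 CPM, against 16.2, 55.9 and 33.4 CPM in Hypoxia_PBS livers. Lcn2, lipocalin 2, moved the other way and rose by 2.02 in normoxia (0.00934). In hypoxia 3 rose and 3 fell after PBS (median 0.13), and 2 rose and 1 fell after DEX (median 0.01). The DEX count in hypoxia was 3, 3 and 2 without Hypoxia_DEX replicate 1, 2 and 3, and 3 without Hypoxia_PBS replicate 3, against 6 with all libraries. The hypoxia count after PBS was 2 without Hypoxia_PBS replicate 3 or Normoxia_PBS replicate 1 and 3 without Normoxia_PBS replicate 2.

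Lipid storage genes known as targets of C/EBP factors and PPAR gamma had the largest list median in hypoxia among the 6 lists. Of 10 measured genes 6 rose and 2 fell after PBS (median 0.75), where 18.9% of all genes were called higher and 16.8% lower. After DEX 4 rose and 2 fell in hypoxia against normoxia (median 0.57), where the shares were 20.7% and 22.2%. The falls were near the background. Cidec, a lipid droplet protein, rose by 5.16 and 5.67 (edgeR adjusted p = 0.00515 and 0.00226), with 52.8, 3.80 and 15.7 CPM in Hypoxia_PBS livers and 0.985, 0.306 and 0.791 CPM in Normoxia_PBS livers. Lpl, lipoprotein lipase, fell by 1.85 and fell by 2.32 (2.27e-06 and 2.69e-07). DEX against PBS raised 3 and lowered 0 in hypoxia (median 0.31), and raised 4 and lowered 1 in normoxia (median 0.42). Lpin1, a phosphatidate phosphatase, rose by 2.72 and 2.36 (0.000250 and 0.000267).

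The 25 genes listed with Cebpz as ribosome assembly genes were all measured. Most are known for work on the large subunit, but the list also holds Polr1a and Polr1b (RNA polymerase I), Noc4l (small subunit) and Fbl, Nop56, Nop58 and Nolc1 (small nucleolar RNA particles). After DEX in hypoxia, where Cebpz rose, 14 rose, Polr1b, Nop56 and Nolc1 among them, and none fell, with a median of 0.37. In that comparison 6.13% of all genes were called higher. In normoxia DEX raised 3 of them and lowered none, with a median of 0.22, where 9.38% of all genes were called higher. Nip7 rose by 0.69, Rrp12 by 0.66, Nolc1 by 0.64 and Noc3l by 0.63 after DEX in hypoxia (edgeR adjusted p = 0.00398, 0.0239, 0.0117 and 0.00233). Noc2l, whose yeast relative is the direct partner of Noc1, had a log2 difference of 0.37 in hypoxia (adjusted p = 0.0177) and of -0.01 in normoxia (0.959). The count in hypoxia was 9 without Hypoxia_DEX replicate 2, 8 without Hypoxia_PBS replicate 2 and 7 without Hypoxia_PBS replicate 3. In normoxia it was 1 without Normoxia_DEX replicate 1, 0 without Normoxia_DEX replicate 2 and 1 without Normoxia_PBS replicate 3. None of the 25 was called in the test of whether the DEX response differed with oxygen, although 4 had an unadjusted p below 0.05 in edgeR and DESeq2 called 1.

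In hypoxia after PBS, where Cebpz fell, 5 of these 25 genes rose and 2 fell, with a median of 0.06, and the count was 4 without Hypoxia_PBS replicate 3. In that comparison 18.9% of all genes were called higher and 16.8% lower, so the number that rose was near the background. Mybbp1a rose by 0.94 and Ncl, nucleolin, by 0.77 (edgeR adjusted p = 0.0106 and 6.57e-06), while Nip7 fell by 0.39 (0.0340). In hypoxia after DEX 9 rose and none fell, with a median of 0.26, where 20.7% of all genes were called higher and 22.2% lower. That count was 5 without Hypoxia_DEX replicate 2 or Normoxia_DEX replicate 2. With both treatments against neither, 18 rose and none fell, with a median of 0.49, where 24.5% of all genes were called higher and 24.7% lower.

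**Figure D4:**
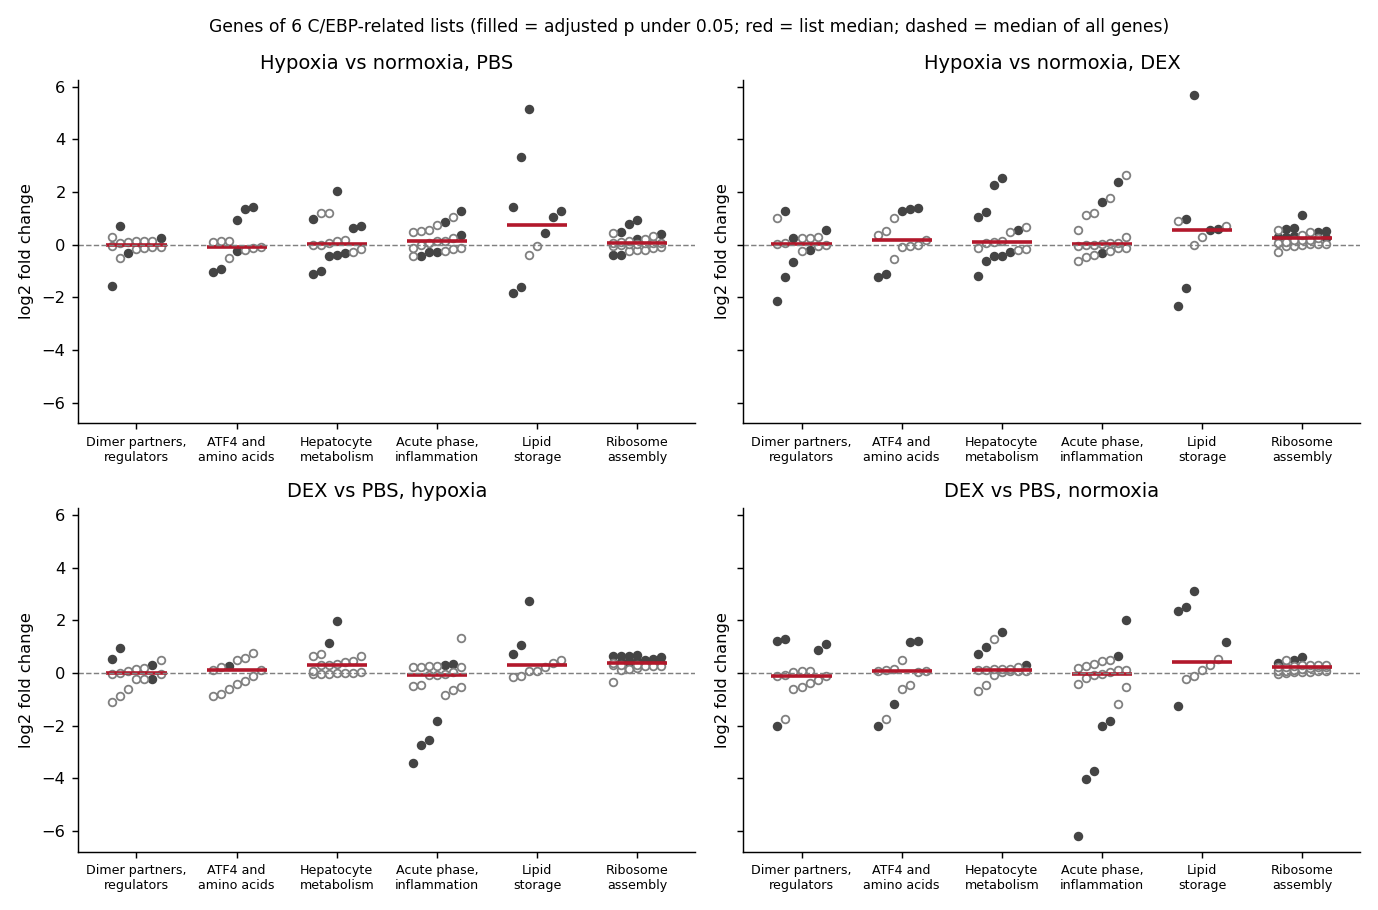
Log2 fold changes of the measured genes of the 6 lists in 4 comparisons, 1 circle per gene, filled where the edgeR adjusted p was below 0.05. Red bars are list medians and the dashed line is the median of all genes, and the medians of the ribosome assembly list are 0.06 and 0.26 in the hypoxia panels and 0.37 and 0.22 in the DEX panels.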

How the data were processed

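Poly(A) RNA of 12 mouse livers was sequenced from stranded libraries. Per the submitters' processing notes, the authors used the mm10 build and named featureCounts, HISAT2 2.0.4, Trimmomatic, DESeq2 and SAMtools. The deposited table holds whole-number counts per Ensembl gene, not normalized. Symbols, lengths and coordinates came from GENCODE M21, and promoters from RefSeq. Genes passing edgeR's filterByExpr (minimum count 10, total 15) were fitted with edgeR 4.0.16 (TMM, robust quasi-likelihood) over all 12 libraries with 1 mean per group, and p-values were adjusted by the Benjamini-Hochberg method over all genes tested. CPM per kb used the union of exons. Log2 CPM for correlations used a prior count of 2. Alternatives were DESeq2 1.42.0, its size factors in edgeR, no filter, the replicate block, only the compared groups, the close libraries summed, 2 libraries left out together and each library left out in turn. The statistical code was tested on simulated data. The members and lists were chosen with earlier results of these data known. Named genes were the members, the 5 genes most alike to each (mean of at least 5 CPM) and up to 4 called genes of each list with the largest change per comparison. Some genes that meet this rule are not reported here. Noc2l, Trib1 and the Cebpe, Ccl2, Cidec, Trib1, Trib2, Psat1 and Asns levels were added after their values were seen.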

Additional observations from a re-analysis of the deposited data

Results flagged for a closer look

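None of the 5 C/EBP genes had a DEX response that differed between hypoxia and normoxia past the threshold, but 2 genes of the lists did. Ep300, a coactivator that C/EBP proteins recruit, had a DEX response in hypoxia minus that in normoxia of -0.80 ± 0.12 on the log2 scale (SE; edgeR adjusted p = 0.00642). It averaged 47.7 ± 1.67 CPM in Hypoxia_DEX and 38.1 ± 3.91 CPM in Hypoxia_PBS livers, and 75.9 ± 7.54 CPM in Normoxia_DEX and 34.9 ± 0.839 CPM in Normoxia_PBS livers (SD, n = 3 each). It was called in 18 of 18 alternatives. Socs3, a feedback inhibitor of cytokine signalling, had a difference of 1.53 ± 0.30 (SE; edgeR adjusted p = 0.0394), with 154 ± 25.2 CPM in Hypoxia_DEX and 215 ± 54.2 CPM in Hypoxia_PBS livers, and 29.6 ± 1.63 CPM in Normoxia_DEX and 119 ± 29.6 CPM in Normoxia_PBS livers (SD, n = 3 each). It was called in 6 of 18 alternatives, with adjusted p between 4.00e-05 and 0.119.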

How the results depend on the processing

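The 6 comparisons were recomputed with each library left out and under 7 other alternatives, or 6 for the test of whether the DEX response differed with oxygen. The Cebpd calls in hypoxia and both Cebpz calls were kept throughout, and DESeq2's size factors in edgeR changed no member call. Of the recomputed member differences 506 kept their direction and side of the threshold, 18 lost the call, 8 gained one and 33, none of them called, changed sign. Whether the replicate numbers pair the samples could not be settled from these correlations. Of same-number pairs 4 of 18 correlated above 0.1 (r from -0.151 to 0.390), and of different-number pairs 5 of 36 (r from -0.424 to 0.303). The replicate block changed no member call and moved 2 list counts, to 5 for the acute phase genes in hypoxia after DEX and to 0 for the amino acid response genes after DEX in hypoxia.

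With no filter, Cebpa lost its calls at log2 differences of -0.61 after DEX in hypoxia, -0.57 after DEX in normoxia and -0.53 with both treatments, leaving 1, 0 and 1 member calls, and Cebpb in hypoxia after PBS became -0.0142. The partner list gave 2 and the amino acid list 0 after DEX in hypoxia, and the amino acid list 3 in hypoxia after PBS. With only the compared groups, Cebpa after DEX in normoxia lost its call at -0.57 (0 member calls) and Cebpb in hypoxia after PBS became -0.0183. All genes called after DEX in hypoxia then numbered 1180. The lists gave 3 (amino acid), 2 (acute phase) and 4 (ribosome assembly) in hypoxia after PBS, 1 (partners), 0 (amino acid) and 4 (metabolism) after DEX in hypoxia, and 9 (partners) after DEX in normoxia.

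With the close pair summed, Cebpa lost its calls at -0.55 after DEX in hypoxia and -0.46 with both treatments (1 member call each). Cebpb in hypoxia after PBS became -0.0093, and the oxygen dependence of the DEX response 0.0234 for Cebpa and 0.0552 for Cebpg. All genes called numbered 1160 after DEX in hypoxia and 70 for the oxygen dependence, and the lists gave 6 (metabolism, hypoxia after DEX), 2 (partners) and 0 (amino acid, both DEX in hypoxia). With both libraries that stand apart left out, Cebpg was called at 0.41 in hypoxia after PBS and -0.44 after DEX in hypoxia, and became -0.0240 with both treatments. Cebpa became -0.0820 in hypoxia after DEX. All genes called for the oxygen dependence numbered 475, against 373 with DESeq2 and 183 in the reported fit. The acute phase list gave 6 in hypoxia after DEX, as it did with DESeq2. After DEX in hypoxia the lists gave 8 (partners), 6 (amino acid), 5 (metabolism) and 5 (lipid), and after DEX in normoxia 9 (partners), 7 (amino acid) and 5 (ribosome assembly).

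Leaving out 1 library at a time gave these ranges. Hypoxia after PBS gave Cebpa -0.0218 to 0.26, Cebpb -0.15 to 0.23 and Cebpg 0.22 to 0.41, with 2 to 6 amino acid, 2 to 7 acute phase and 4 to 7 ribosome assembly genes. Hypoxia after DEX gave Cebpa -0.0827 to 0.19, Cebpb -0.32 to -0.0396 and Cebpg 0.12 to 0.36, with 1 to 2 members, 3 to 6 amino acid, 6 to 11 metabolism and 5 to 12 ribosome assembly genes. DEX in hypoxia gave Cebpa -0.74 to -0.55, Cebpb 0.13 to 0.45 (0.00664 with both libraries out), Cebpd 0.16 to 0.43 and Cebpg -0.31 to -0.0774, with 1 to 2 members, 1072 to 2466 of all genes, 1 to 5 partners, and 0 to 3 amino acid, 2 to 5 metabolism, 2 to 7 acute phase, 3 to 5 lipid and 7 to 19 ribosome assembly genes. DEX in normoxia gave Cebpa -0.71 to -0.39, Cebpb 0.30 to 0.68, Cebpd 0.26 to 0.70 and Cebpz 0.0498 to 0.17, with 0 to 2 members, 5 to 8 partners, 2 to 4 metabolism and 0 to 3 ribosome assembly genes. Both treatments gave Cebpa -0.65 to -0.36, Cebpb 0.12 to 0.53, Cebpg -0.0248 to 0.21 and Cebpz -0.0142 to 0.11, with 1 to 2 members. The oxygen dependence of the DEX response gave Cebpa -0.24 to 0.10, Cebpb -0.38 to 0.00905, Cebpd -0.42 to 0.0243 and Cebpg -0.16 to 0.0707, with 63 to 306 of all genes.

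The longest transcript in place of the exon union gave 15.5 CPM per kb for Cebpg and 10.3 for Cebpz and kept the order of the 5 levels. With 3 animals a group, the Cebpb differences after DEX of 0.30 in hypoxia and 0.45 in normoxia did not pass, each with an SE of 0.20. The Cebpz difference of 0.44 after DEX in hypoxia, with an SE of 0.08, passed. The cause of these changes was not tested.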
